A study of Mus musculus with 8 samples.

Results

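Nfe2l2 and 9 antioxidant genes outside the glutathione pathway were followed in chondrocytes that overexpress the zinc transporter ZIP8. The 10 genes were chosen by name: Nfe2l2 itself (which encodes Nrf2), Hmox1, Nqo1, Txnrd1, Txn1, Srxn1, Osgin1, Sqstm1, Me1 and Cat. All 10 were found among the 22180 genes with a probe set of their own, each through 1 probe set. The study measured total RNA on 8 microarrays from primary articular chondrocytes, the cells of joint cartilage, of wild-type ICR mice aged 5 days, grown as a monolayer in serum-containing medium. Cells of the Ad-Zip8 group (4 arrays) carried a recombinant adenovirus expressing ZIP8, and cells of the Ad-null group (4 arrays) an adenovirus without it, both for 24 h. Both groups were infected, so uninfected cells do not enter any comparison, and the virus dose, the promoter driving ZIP8 and any pooling of animals were not given in the sources used here. The arrays are labelled biological replicates; nothing ties them to separate animals, so each p-value reflects variation among these cultures, which may be technical.

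Nrf2 is a transcription factor whose amount is set mainly by protein breakdown: Keap1 binds it and presents it to the Cul3 ubiquitin ligase. Oxidants and electrophiles block that capture, after which Nrf2 enters the nucleus, pairs with small Maf proteins and binds antioxidant response elements, which Bach1 occupies when Nrf2 is scarce. Because of this control, the Nfe2l2 transcript does not report Nrf2 activity, and its target genes are the usual readout. In mouse models of osteoarthritis, loss of Nrf2 worsens cartilage damage.

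The antioxidant response element is the sequence through which Nrf2 acts, and the promoters that held its core are therefore shown. RefSeq promoter windows (build GRCm38.p6) run from 250 bases before to 50 bases after an annotated start. They were found by symbol for 9 of the 10 genes and gave 12 windows, 3 for Txnrd1 and 2 for Me1; Hmox1 had no entry. The response element core was searched on both strands as TGACNNNGC and as TGAGNNNGC, the AP-1 motif of Fos and Jun proteins as TGANTCA, and the metal response core of the zinc sensor Mtf1 as TGCACNC and TGCGCNC. The AP-1 motif can lie inside a response element core, because TGANTCA followed by GC fits both. Capitals mark every match in the sequences, which are written 5′ to 3′ along each gene; a match on the other strand appears as its reverse complement. The Nfe2l2 sequence lies at chr2:75704664-75704913 (minus strand), that of Txnrd1 at chr10:82858956-82859205 (plus strand, the second of its 3 starts along the chromosome), that of Srxn1 at chr2:152105274-152105523 (plus strand), that of Osgin1 at chr8:119436897-119437146 (plus strand) and that of Me1 at chr9:86695912-86696164 (minus strand, the second of its 2 starts along the chromosome and so the upstream one along the gene).
Nfe2l2: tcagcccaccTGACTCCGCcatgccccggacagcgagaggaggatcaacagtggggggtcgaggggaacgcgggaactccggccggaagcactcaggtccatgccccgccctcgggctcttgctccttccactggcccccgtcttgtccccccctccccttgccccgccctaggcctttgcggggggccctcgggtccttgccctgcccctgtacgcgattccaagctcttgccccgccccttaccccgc
Txnrd1: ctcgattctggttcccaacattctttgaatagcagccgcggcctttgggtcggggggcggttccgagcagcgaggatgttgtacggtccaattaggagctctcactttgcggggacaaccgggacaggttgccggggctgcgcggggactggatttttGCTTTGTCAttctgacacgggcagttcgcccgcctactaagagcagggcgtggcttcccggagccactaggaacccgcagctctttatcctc
Srxn1: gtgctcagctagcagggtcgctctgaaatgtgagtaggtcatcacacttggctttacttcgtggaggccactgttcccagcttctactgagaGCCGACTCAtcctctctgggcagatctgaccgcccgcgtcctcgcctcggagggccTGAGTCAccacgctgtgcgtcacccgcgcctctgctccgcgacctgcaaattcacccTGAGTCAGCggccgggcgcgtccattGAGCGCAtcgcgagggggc
Osgin1: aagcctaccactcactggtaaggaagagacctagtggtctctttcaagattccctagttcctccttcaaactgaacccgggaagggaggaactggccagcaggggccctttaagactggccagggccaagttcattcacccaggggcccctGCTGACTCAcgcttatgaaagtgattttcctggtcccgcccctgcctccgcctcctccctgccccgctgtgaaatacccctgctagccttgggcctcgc
Me1: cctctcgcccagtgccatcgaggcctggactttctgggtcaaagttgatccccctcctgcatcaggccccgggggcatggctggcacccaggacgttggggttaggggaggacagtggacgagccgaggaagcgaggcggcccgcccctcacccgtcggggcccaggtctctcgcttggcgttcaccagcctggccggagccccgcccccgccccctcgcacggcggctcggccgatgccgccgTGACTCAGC
A response element core was present in 5 of the 12 windows, against 27.8% of all 32851 promoter windows. The AP-1 motif was present in 3 of the 12 windows (Srxn1, Osgin1 and Me1), against 7.81% of all windows, and in each of these a response element core overlapped an AP-1 motif. The metal response core was found in 1 window, that of Srxn1, against 25.7% of all windows. The core lay 240 bases before the start in Nfe2l2, 92 in Txnrd1, 99 in Osgin1 and 6 in Me1, and Srxn1 had it 158 and 45 bases before its start, with another core past the start. A match describes the letters in the window and is not a measured binding site. Sequence more than 250 bases before a start was not searched, so a window without a match does not show that the gene lacks a response element.

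**Figure D1:**
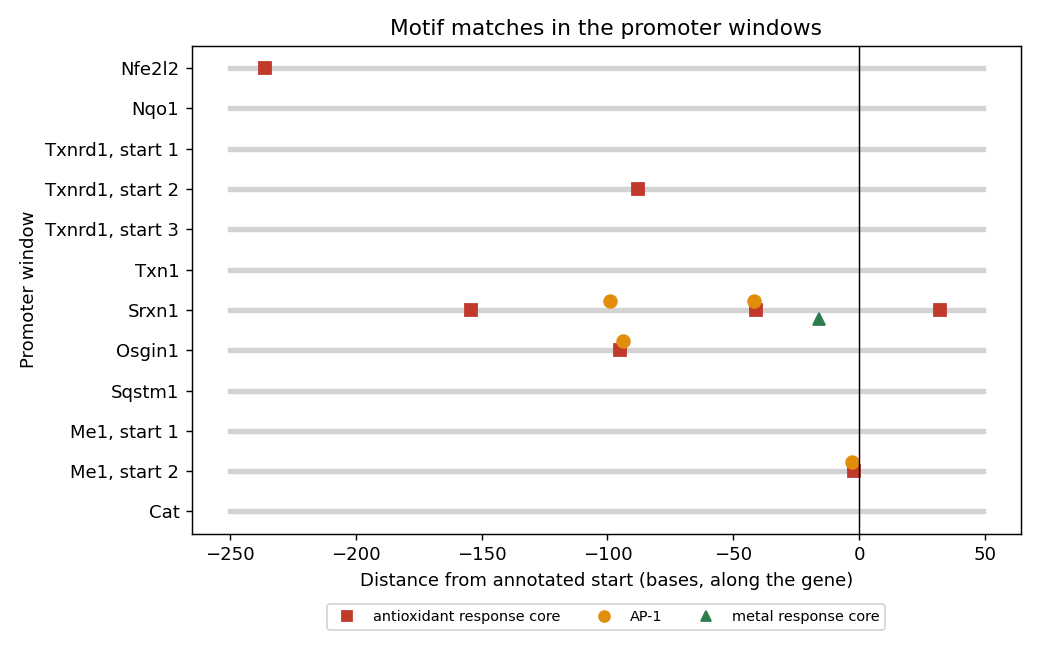
Positions of the motif matches in the 12 promoter windows of 9 genes; the horizontal axis is the distance in bases from the annotated start, grey bars are the windows, squares are response element cores, circles AP-1 motifs and the triangle the metal response core. Srxn1 carries matches of all 3 kinds. The windows of Nqo1, Txn1, Sqstm1 and Cat carry none, nor do Txnrd1 starts 1 and 3 and Me1 start 1. Sequence outside the windows was not searched.

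The overexpressed gene was checked first. Slc39a8, which encodes ZIP8, had log2 values of 11.16, 10.90, 11.24 and 11.20 on the Ad-Zip8 arrays, against 6.25, 6.27, 6.12 and 6.15 on the Ad-null arrays. All values here are log2 RMA values as deposited, and differences are Ad-Zip8 minus Ad-null. A gene was called when its limma p-value, adjusted by the Benjamini-Hochberg method over all 22180 genes, was under 0.05. By this rule 5.48% of all genes were higher and 5.12% lower. Chondrocyte identity was checked through 9 markers: their mean level lay between 11.8 and 12.0 on the Ad-Zip8 arrays and was 12.5 on each Ad-null array, far above the array medians of 5.04 to 5.11. The Ad-Zip8 arrays were below all Ad-null arrays for 9 of these 9 markers (9.74% of all genes), and 7 were called lower. In bulk RNA, fewer cells of a type and less RNA per cell cannot be told apart.

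Of the 10 genes, 2 rose, none fell and 8 were not called, whereas 5.48% of all genes rose and 5.12% fell. Hmox1, the heme oxygenase gene, rose 1.68-fold, and Txnrd1, the cytosolic thioredoxin reductase gene, rose 1.38-fold. A further 5 genes (Nfe2l2, Txn1, Srxn1, Osgin1 and Sqstm1) had all 4 Ad-Zip8 values above all 4 Ad-null values, with log2 differences of 0.22 to 0.32 and adjusted p-values of 0.0532 to 0.0851, and were not called. Together 7 of the 10 genes had groups that did not overlap in the upward direction, against 7.89% of all genes. The median log2 difference of the 10 genes was 0.25, against -0.02 over all genes. Nqo1, Me1 and Cat overlapped between the groups.

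**Figure D2:**
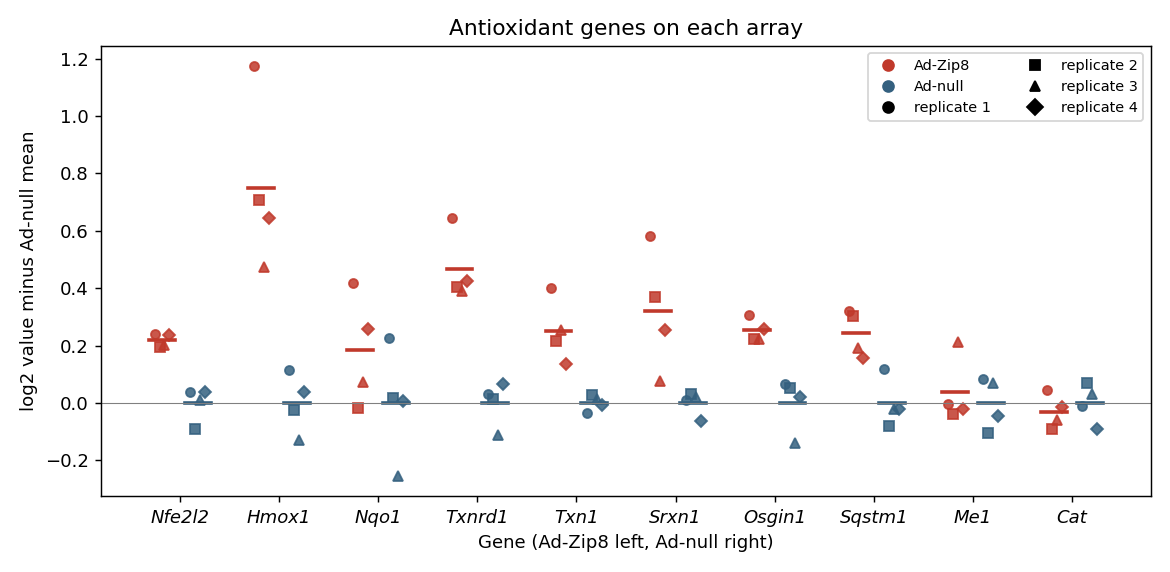
Each gene's log2 value minus its Ad-null mean on every array, Ad-Zip8 (4 arrays) left and Ad-null (4 arrays) right; symbols are replicate numbers and bars are group means. The groups separate for 7 genes and overlap for Nqo1, Me1 and Cat. Ad-Zip8 replicate 1 holds the highest value of every gene except Me1 and Cat.

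Hmox1 encodes the inducible enzyme that splits heme into biliverdin, carbon monoxide and iron. Its log2 values were 11.39, 10.92, 10.69 and 10.86 on the Ad-Zip8 arrays (replicates 1 to 4), against 10.33, 10.19, 10.09 and 10.25 on the Ad-null arrays. Every Ad-Zip8 value lay above every Ad-null value, and replicate 1 was the highest array in both groups. The group means were 10.97 ± 0.30 with Ad-Zip8 and 10.22 ± 0.10 with Ad-null (SD, n = 4 each), so the log2 difference was 0.75 (SE 0.14, limma adjusted p = 0.00646). Within replicate numbers the difference was 1.06, 0.73, 0.60 and 0.61 log2 units for numbers 1 to 4. Without Ad-Zip8 replicate 1 the difference was 0.61 log2 units (limma adjusted p = 0.00450).

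Macrophages are another source of Hmox1 transcript. Of 12 macrophage markers, 2 were called higher (Cd14 and Cd68), 1 lower (Laptm5), these 3 named after their values were seen, and 9 were not called, with a median log2 difference of 0.01. Their mean log2 level ranged from 5.05 to 5.15 on the Ad-Zip8 arrays and from 4.90 to 5.04 on the Ad-null arrays, and 5 of the 12 had a group mean above the array medians. The log2 differences were 1.39 for Cd14, 0.83 for Cd68 and -0.72 for Laptm5, and each of these had both group means above the array medians. Adgre1 and Ptprc, which were not called, averaged 4.22 and 3.22 on the log2 scale with Ad-Zip8. With Ad-null they averaged 4.12 and 3.39, and all 4 means were below the array medians. The part of other cells in the Hmox1 value was not tested. None of 8 endothelial markers was called, whereas 3 of 8 fibroblast markers were higher and 1 lower, and 1 of 8 skeletal muscle markers was lower. Among all genes 5.48% were higher and 5.12% lower.

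The thioredoxin branch reduces oxidised protein thiols: thioredoxin (Txn1) passes electrons to its targets, thioredoxin reductase (Txnrd1) recharges it with electrons from NADPH, and sulfiredoxin (Srxn1) repairs overoxidised peroxiredoxins. Txnrd1 had log2 values of 9.64, 9.40, 9.39 and 9.42 with Ad-Zip8, against 9.03, 9.01, 8.89 and 9.06 with Ad-null. The groups did not overlap, and their means were 9.46 ± 0.12 with Ad-Zip8 and 8.999 ± 0.08 with Ad-null (SD, n = 4 each). The log2 difference was 0.47 (SE 0.08, limma adjusted p = 0.00508), and all 4 replicate numbers gave a positive difference, of 0.36 to 0.61.

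Txn1 had log2 values of 9.23, 9.04, 9.08 and 8.96 with Ad-Zip8, against 8.79, 8.85, 8.84 and 8.82 with Ad-null. The lowest Ad-Zip8 array stood 0.11 above the highest Ad-null array. Its log2 difference was 0.25 (95% interval 0.09 to 0.42, limma adjusted p = 0.0625), which was not called. Srxn1 had log2 values of 8.43, 8.22, 7.93 and 8.11 with Ad-Zip8, against 7.86, 7.88, 7.87 and 7.79 with Ad-null. The Ad-null arrays lay close together, with an SD of 0.04, whereas the Ad-Zip8 arrays spread with an SD of 0.21 and came within 0.05 of the Ad-null range in replicate 3. The Srxn1 log2 difference was 0.32 (95% interval 0.09 to 0.55, limma adjusted p = 0.0851), and without Ad-Zip8 replicate 3 it was 0.40 and passed (limma adjusted p = 0.0288). Srxn1 and Hmox1 placed the 4 Ad-Zip8 arrays in an identical order, with replicate 1 highest and replicate 3 lowest. This order was not particular to the pair: the related genes Glrx, Slc48a1 and Pgd shared it, whereas Txnrd1 and Txn1 did not.

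Nfe2l2 had log2 values of 9.83, 9.78, 9.79 and 9.82 with Ad-Zip8, against 9.63, 9.50, 9.60 and 9.63 with Ad-null. The Ad-Zip8 arrays were tightly grouped (SD 0.02) and the difference was small, 0.22 log2 units or 1.16-fold (SE 0.07, 95% interval 0.07 to 0.36, limma adjusted p = 0.0634). It differed little between replicate numbers, from 0.19 to 0.29. Sqstm1 encodes the autophagy receptor p62, which binds Keap1 and so competes with Nrf2 for it. Its log2 values were 11.08, 11.07, 10.95 and 10.92 with Ad-Zip8, against 10.88, 10.68, 10.74 and 10.74 with Ad-null. The lowest Ad-Zip8 array was 0.04 above the highest Ad-null array, and the log2 difference of 0.24 (SE 0.08, limma adjusted p = 0.0757) was not called.

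Osgin1 encodes a growth inhibitor induced by oxidative stress. It had log2 values of 6.89, 6.81, 6.81 and 6.85 with Ad-Zip8, against 6.65, 6.64, 6.45 and 6.61 with Ad-null. The groups were separate by 0.16 log2 units, and the difference of 0.25 (SE 0.07) came nearest to the threshold of the genes not called (limma adjusted p = 0.0532).

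Nqo1 encodes the quinone reductase that is a widely used marker of Nrf2 activity in many cell types. Its log2 values were 9.25, 8.81, 8.90 and 9.09 with Ad-Zip8, against 9.05, 8.85, 8.57 and 8.84 with Ad-null. The groups overlapped, and the arrays of each group spread more than for most of the other genes (SD 0.19 with Ad-Zip8 and 0.20 with Ad-null). The log2 difference was 0.18, with a 95% interval of -0.09 to 0.46 (limma adjusted p = 0.439), and the upper end of that interval came close to the Txnrd1 difference. Within replicate numbers it was positive in 3 of 4 cases, with -0.03 for number 2.

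Me1, the cytosolic malic enzyme gene whose product makes NADPH, had log2 values of 10.51, 10.47, 10.73 and 10.49 with Ad-Zip8, against 10.59, 10.41, 10.58 and 10.47 with Ad-null. Cat, the gene of catalase, which breaks down hydrogen peroxide in peroxisomes, had log2 values of 11.19, 11.06, 11.09 and 11.14 with Ad-Zip8, against 11.14, 11.22, 11.18 and 11.06 with Ad-null. In both genes the arrays of the groups were interleaved. The log2 differences were 0.04 for Me1 (95% interval -0.15 to 0.22, limma adjusted p = 0.849) and -0.03 for Cat (95% interval -0.19 to 0.13, limma adjusted p = 0.854; 0.012 with repeated quantile normalization). Without Ad-Zip8 replicate 3 the Me1 difference was -0.022. Both intervals lay below the Txnrd1 and Hmox1 changes.

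**Figure D3:**
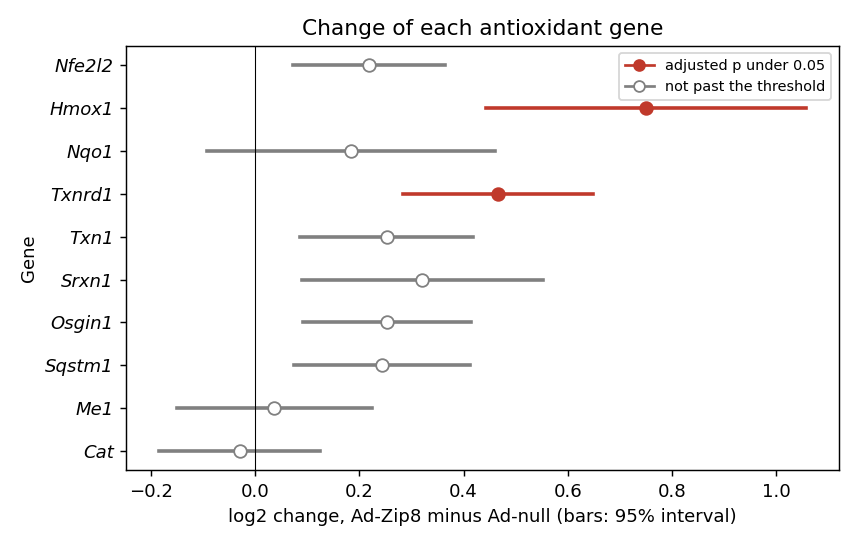
Log2 change of each gene, Ad-Zip8 minus Ad-null (4 arrays each), with its 95% interval from limma; filled points passed an adjusted p of 0.05 and open points did not. The intervals are not adjusted for the number of genes, so those of Nfe2l2, Txn1, Srxn1, Osgin1 and Sqstm1 leave out 0 although the genes were not called.

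The number of the 10 genes called depended on the variance model and on the filter. Under a limma fit with a variance trend over mean level, 7 were higher (6.38% of all genes), with adjusted p-values of 0.00961 for Nfe2l2, 0.0149 for Txn1, 0.0324 for Srxn1, 0.0396 for Osgin1 and 0.0114 for Sqstm1. These 7 were also called after dim genes were left out, a fit in which 12.1% of all genes tested were higher. With repeated quantile normalization 5 of them were called (5.73% of all genes). In an exact permutation test of each gene over the 8 arrays (two-sided, unadjusted), Nqo1 gave p = 0.229, Me1 0.657 and Cat 0.543. For the 7 genes with separate groups this test can only give its smallest p, 0.0286, and so restates the separation.

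Arrays of a group differed in how many of the 10 genes they held above the group mean. On Ad-Zip8 replicate 1, 9 of the 10 genes were above their Ad-Zip8 mean, by up to 0.42 log2 units for Hmox1, whereas Me1 was below it; of all genes 49.7% were above the mean on this array. Ad-Zip8 replicates 2 and 3 had 2 of 10 genes above the mean each, and replicate 4 had 4. Slc39a8 on Ad-Zip8 replicate 1 was 11.16, inside the range of the other Ad-Zip8 arrays (10.90 to 11.24). Among Ad-null arrays, replicate 1 had 8 of 10 genes above the mean (54.5% of all genes), and replicates 2 to 4 had 6, 5 and 5. The cause of this array-to-array spread was not tested.

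**Figure D4:**
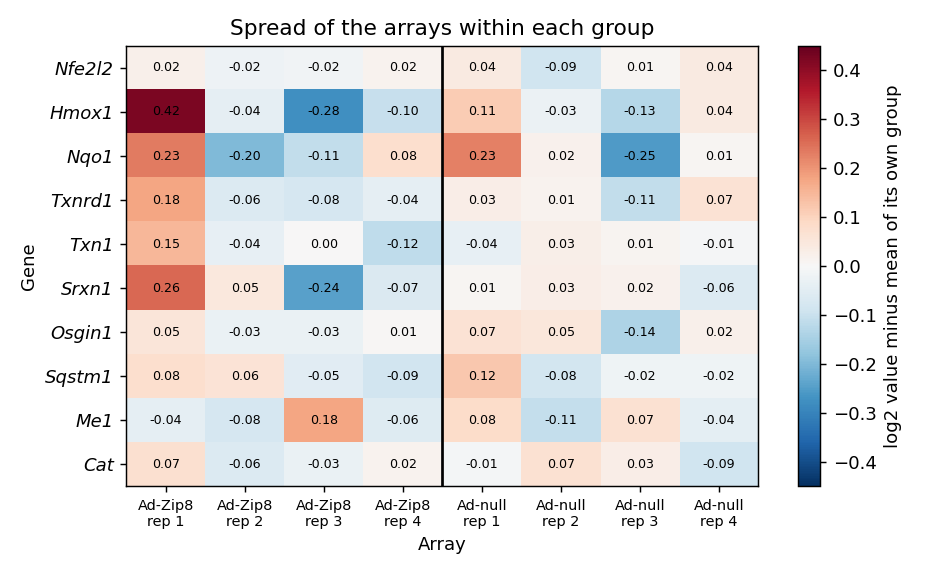
Each gene's log2 value minus the mean of its own group on every array, Ad-Zip8 (4 arrays) left and Ad-null (4 arrays) right; red is above and blue below the group mean. Hmox1 reaches 0.42 on Ad-Zip8 replicate 1 and -0.28 on Ad-Zip8 replicate 3.

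Profiles most like that of Nfe2l2, by the mean absolute difference between centred log2 values over the 8 arrays, were those of Odf1 and Cep135 (both 0.026) and the peroxisome import receptor gene Pex5 (0.028). None of these 3 genes was called (limma adjusted p = 0.0887, 0.0674 and 0.122). All 3 passed with dim genes left out (limma adjusted p = 0.0238, 0.0170 and 0.0349), and Odf1 also with the variance trend (limma adjusted p = 0.00897), fits that called Nfe2l2 too. Those most like Hmox1 were the decoy receptor gene Tnfrsf23 (0.055), the ATP-gated channel gene P2rx4 (0.057) and the aminopeptidase gene Lvrn (0.065), which rose by 0.64, 0.72 and 0.80 log2 units (limma adjusted p = 0.0183, 0.00358 and 0.00935). Tnfrsf23 was not called without Ad-null replicate 3 (limma adjusted p = 0.0522). Likeness was measured over both groups and so includes the group difference. The changes of the genes picked therefore follow from the selection and are not separate results. The Odf1 probe set used averaged 12.08 with Ad-Zip8 and 11.86 with Ad-null. Another, dimmer Odf1 probe set averaged 4.82 and 4.64 (log2 difference 0.18, limma unadjusted p = 0.148). Which of them reports Odf1 was not tested.

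The transcripts that control Nrf2 protein were measured next. Of 13 regulators and partners 12 were measured and 0 were called by limma, against 10.6% of all genes called in either direction. With so few genes, a count of 0 lies near that share. Their log2 differences ran from -0.24 to 0.24, with a median of 0.02. Keap1 was 8.05, 7.92, 7.87 and 8.11 with Ad-Zip8, against 8.06, 7.97, 7.85 and 8.10 with Ad-null. Replicate for replicate the Keap1 values nearly coincided, and the log2 difference was -0.01 (95% interval -0.20 to 0.18), but 0.016 with repeated quantile normalization and 0.0024 with median centring. A second, dimmer Keap1 probe set differed by 0.29 log2 units, with means of 5.69 with Ad-Zip8 and 5.40 with Ad-null (limma unadjusted p = 0.00381). Cul3 had a log2 difference of -0.06 (limma adjusted p = 0.709). Bach1, the repressor that competes with Nrf2, had means of 6.96 ± 0.08 with Ad-Zip8 and 6.72 ± 0.08 with Ad-null (SD, n = 4 each) and non-overlapping groups. Its log2 difference of 0.24 was not called (limma adjusted p = 0.0743), although the fit without dim genes called it (limma adjusted p = 0.0209). The small Maf partners Maff, Mafg and Mafk had log2 differences of 0.21, 0.17 and 0.16, and Syvn1, which encodes the ER ligase Hrd1 that also targets Nrf2, of -0.24; all 4 overlapped between the groups and were not called.

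**Figure D5:**
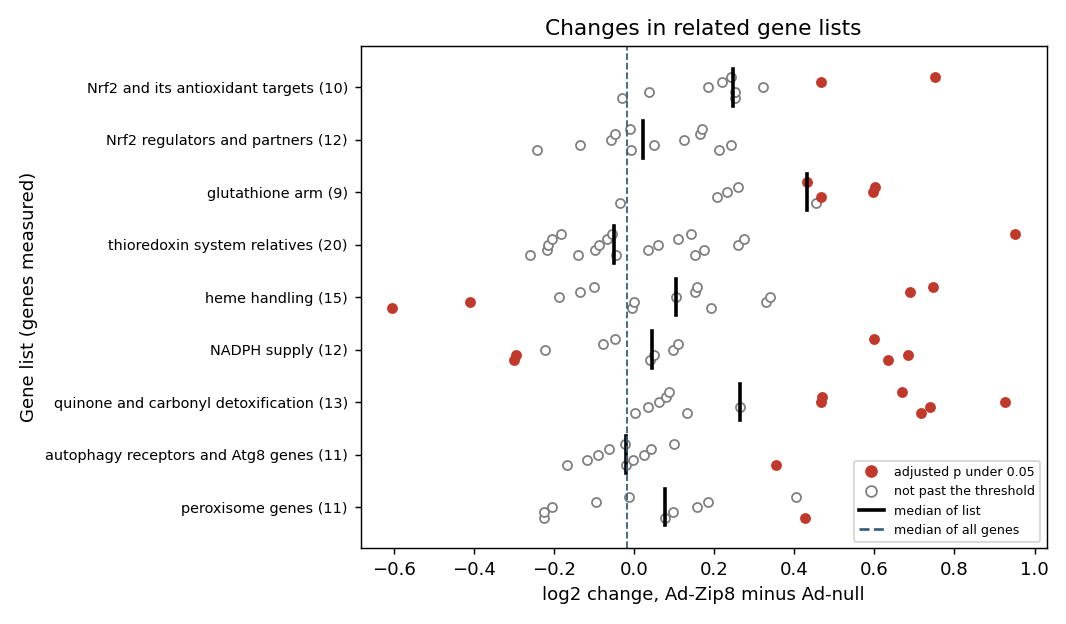
Log2 change, Ad-Zip8 minus Ad-null (4 arrays each), of every measured gene in the antioxidant set and 8 related lists; filled points passed an adjusted p of 0.05, black bars are list medians and the dashed line is the median of all genes (-0.02). Glutathione genes have a median of 0.43 and detoxification genes of 0.26, whereas thioredoxin relatives lie around -0.05.

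Across 8 related lists, 103 of 116 genes were measured, of which 18 were higher and 4 lower, against 5.48% and 5.12% of all genes. With the replicate block 19 were higher and 2 lower. The other 13 genes were not analysed here. In the glutathione arm of the Nrf2 response 4 of 9 genes were higher and none lower, with a median log2 difference of 0.43. These were the cystine importer gene Slc7a11 (log2 difference 0.60), the transferase gene Gsta4 (0.60), the glutathione reductase gene Gsr (0.47) and Gclc (0.43), which encodes the catalytic subunit of the rate-limiting enzyme of glutathione synthesis. Gsr was not called without Ad-Zip8 replicate 1 or 3 (limma adjusted p = 0.0601 and 0.0526). Gclc was not called without Ad-Zip8 replicate 4 or Ad-null replicate 2, 3 or 4 (limma adjusted p = 0.0529, 0.0595, 0.0580 and 0.0610).

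Detoxification genes for quinones and carbonyls, the class to which Nqo1 belongs, were higher in 6 of 13 cases and lower in none. Among all genes the shares were 5.48% and 5.12%. The median log2 difference of the list was 0.26, and all 13 differences were above 0. The higher count was 4 with the replicate block. It was 4 to 6 with 1 array left out, lowest without Ad-Zip8 replicate 1 or 4 or Ad-null replicate 1, 3 or 4. With dim genes left out it was also 4, in a fit that called 12.1% of the 11425 genes tested higher. Genes that this fit left out could not be called in it, so the smaller count need not be a loss of calls. Ptgr1, an enzyme gene for reactive alkenals, had means of 6.62 ± 0.28 with Ad-Zip8 and 5.69 ± 0.17 with Ad-null (SD, n = 4 each) and rose 1.90-fold (limma adjusted p = 0.00235). The export pump genes Abcc4 and Abcc1 rose by 0.67 and 0.47 log2 units (limma adjusted p = 0.00265 and 0.00679). The aldo-keto reductase gene Akr1b8 rose by 0.72 from an Ad-null mean of 4.73, below the array medians, where differences are compressed (limma adjusted p = 0.0100).

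Of 20 measured relatives of thioredoxin 1 was higher and 19 were not called, a share close to the 5.48% of all genes that were higher, and the median log2 difference was -0.05. With the variance trend 3 were higher and 2 lower, in a fit that called 6.38% of all genes higher. With dim genes left out 3 were also higher and 2 lower, in a fit that called 12.1% of genes tested higher. Both fits called more genes lower among all genes as well. With repeated quantile normalization 2 were higher, against 5.73% of all genes. The 1 higher gene was Glrx, which encodes glutaredoxin. Its log2 values were 9.38, 9.15, 8.87 and 9.09 with Ad-Zip8, against 8.24, 8.15, 8.14 and 8.16 with Ad-null. No Ad-Zip8 array came near the Ad-null range, and Glrx rose 1.93-fold (log2 difference 0.95, SE 0.10, limma adjusted p = 2.78e-04). Txnip, which encodes an inhibitor of thioredoxin, had log2 values of 9.70, 10.01, 9.93 and 9.90 with Ad-Zip8, against 10.09, 10.12, 10.13 and 10.06 with Ad-null. All Ad-Zip8 arrays were below all Ad-null arrays, but the log2 difference of -0.22 was not called (limma adjusted p = 0.137) and passed only in the variance trend and dim-gene fits (limma adjusted p = 0.0407 and 0.0498).

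Heme handling genes, which supply or clear the substrate and products of Hmox1, were higher in 2 and lower in 2 of 15 cases. Among all genes the shares were 5.48% and 5.12%. With the replicate block 4 of the list were higher and 2 lower. Likewise 4 were higher with the variance trend (6.38% of all genes) and with dim genes left out (12.1% of genes tested). Slc48a1, the gene of the transporter that brings heme out of lysosomes, had log2 values of 12.11, 11.91, 11.66 and 11.76 with Ad-Zip8, against 11.20, 11.19, 10.88 and 11.19 with Ad-null. The groups did not overlap, and Slc48a1 rose by 0.75 log2 units (SE 0.12, limma adjusted p = 0.00261). Fth1, whose ferritin product stores the iron that heme breakdown frees, rose by 0.69 (SE 0.07), with Ad-Zip8 values near the top of the scale, where differences are compressed. The heme synthesis genes Cpox and Alad fell by 0.61 and 0.41 log2 units (limma adjusted p = 0.00409 and 0.00754). Cpox had means of 9.07 ± 0.14 with Ad-Zip8 and 9.68 ± 0.16 with Ad-null (SD, n = 4 each). Blvrb, a biliverdin reductase gene, had a log2 difference of 0.33 that was not called (limma adjusted p = 0.0614). It passed with the replicate block, the variance trend and dim genes left out (limma adjusted p = 0.0496, 0.0317 and 0.0206). Without Ad-Zip8 replicate 3 it passed as well (limma adjusted p = 0.00912).

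Txnrd1 and Nqo1 use electrons from NADPH, but the list of NADPH supply genes also covers other cell compartments, such as mitochondria. Its genes were higher in 3 and lower in 2 of 12 cases, against 5.48% and 5.12% of all genes. Me3, a mitochondrial relative of Me1, rose by 0.68 log2 units (limma adjusted p = 0.00125), and the pentose phosphate genes Pgd and H6pd rose by 0.63 and 0.60 (limma adjusted p = 0.00271 and 0.00325). Mthfd2, a mitochondrial folate enzyme gene, had a log2 difference of -0.30 (limma adjusted p = 0.0340). The call was lost with the replicate block, repeated quantile normalization and median centring (limma adjusted p = 0.0655, 0.0599 and 0.0592). It was also lost in each fit that left out 1 array other than Ad-Zip8 replicate 3 (limma adjusted p up to 0.0868). With the replicate block, repeated quantile normalization or median centring 0 NADPH genes were lower. Each of the 8 fits with an array left out gave 0 or 1.

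Functional relatives of Sqstm1 and Cat were called about as often as genes in general (10.6% in either direction). Among 11 autophagy receptor and Atg8 genes 1 was higher, Map1lc3b, which encodes the LC3B protein that p62 binds. Map1lc3b had log2 values of 10.87, 10.86, 10.86 and 10.82 with Ad-Zip8, against 10.53, 10.52, 10.46 and 10.48 with Ad-null, a log2 difference of 0.36 (SE 0.06, limma adjusted p = 0.00484). Among 11 peroxisome genes Pex11a was higher by 0.43 (limma adjusted p = 0.0400) and 10 were not called. With the variance trend 2 peroxisome genes were higher and 2 lower, in a fit that called 6.38% of all genes higher. With dim genes left out 3 were higher and 2 lower, in a fit that called 12.1% of genes tested higher. Both fits also called more genes lower among all genes. The larger counts therefore need not be particular to peroxisome genes. The Pex11a call was lost in every fit that left out an array other than Ad-null replicate 1 (limma adjusted p up to 0.109).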

How the data were processed

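The authors deposited 1 log2 value per probe set and array, from RMA according to the submitters' processing notes (background correction, quantile normalization, probe summary). Its version and the array's genome build were not given in the sources used here. Of 41345 probe sets, 23521 had 1 gene symbol; the one with the highest mean over all 8 arrays was kept per gene, leaving 22180 genes. Groups were compared with limma 3.58.1 in R 4.3.3 (lmFit, eBayes, two-sided, no covariates, no filter), adjusted by Benjamini-Hochberg over all genes; intervals are at 95%. The fit was tested on simulated data. Detection calls were not used, and the number of arrays limits precision. Deviations from group means correlated at 0.11 to 0.37 between same-numbered arrays (other pairs -0.27 to 0.16), so replicate numbers 1 to 4 were taken as pairs in an alternative fit; the labels do not state this pairing. The genes, lists and naming rule (list genes called with the smallest adjusted p, up to 4 a list, plus preset names) were chosen with earlier results of these data known. Promoter sequences are RefSeq's. Alternatives were a variance trend, the replicate block, a filter on dim genes, repeated quantile normalization, median centring, the mean over probe sets, and leaving out each array.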

Additional observations from a re-analysis of the deposited data

Results flagged for a closer look

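Of 94 groups of 4 arrays checked over 47 named genes, 9 held an array far from the others by Dixon's criterion at the 95% level; chance flags about 1 in 20 groups. Txnrd1 was 9.64 on Ad-Zip8 replicate 1, with the other Ad-Zip8 arrays between 9.39 and 9.42. Me1 was 10.73 on Ad-Zip8 replicate 3, against 10.47 to 10.51 on the others. H6pd reached 8.82 on Ad-Zip8 replicate 1, with the others at 8.43 to 8.49. In the Ad-null group, replicate 1 was high for Gclc (8.06, others 7.88 to 7.90), Glrx (8.24, others 8.14 to 8.16) and Pex11a (5.98, others 5.53 to 5.60). Ad-null replicate 3 was low for Slc48a1 (10.88, others 11.19 to 11.20) and Mafg (6.83, others 7.16 to 7.21), and Ad-null replicate 4 was high for Bach1 (6.83, others 6.67 to 6.69).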

How the results depend on the processing

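Hmox1 and Txnrd1 stayed called and higher under all alternatives tried. The count of higher antioxidant genes was 2 as reported, 7 with the variance trend, 7 with dim genes left out (11425 genes tested), 5 with repeated quantile normalization, and 2 to 3 with 1 array left out; none was lower in any fit. Among all genes, the lower count of 1136 ranged from 708 to 923 with 1 array left out, fewest without Ad-Zip8 replicate 1 (708) and Ad-null replicate 1 (721). In the related lists the lower count of 4 was 8 with the variance trend and 9 with dim genes left out. It was 2 with the replicate block, 2 with repeated quantile normalization, 2 with median centring and 2 to 3 with 1 array left out. The lower count among all genes moved in the same direction in each of these fits. The shifts therefore need not be particular to the lists. The block left the 10 antioxidant genes' calls as they were. Differences near 0 changed sign without a call: Me1 was -0.022 without Ad-Zip8 replicate 3 (-0.022 to 0.065 over the fits without 1 array), Cat 0.01 with repeated quantile normalization, and Keap1 0.016 with it, 0.0024 with median centring, 0.14 as the mean of its probe sets, and -0.058 to 0.030 over the fits without 1 array, above 0 at 0.014 without Ad-Zip8 replicate 2, 0.030 without Ad-Zip8 replicate 3, 0.012 without Ad-null replicate 1 and 0.026 without Ad-null replicate 4. The cause of these shifts was not tested. Signal over background limits dim genes.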
